A study of Homo sapiens with 3 samples.

Results

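The mevalonate pathway was followed through 9 genes, ACAT2, HMGCS1, MVK, PMVK, MVD, IDI1, FDPS, FDFT1 and SQLE, which encode enzymes between acetyl-CoA and squalene epoxide. The genes were chosen by name, and a probe set, the group of probes that reads 1 transcript on the array, was used only where the platform annotation gave it a single gene. On this rule 18 probe sets read 8 of the 9 genes. FDFT1, the squalene synthase, was not analysed here because no probe set carried it as its only gene, and the reductase step between HMGCS1 and MVK was not analysed here either. The 8 genes stand among 12321 genes tested. HCT-116, a human colorectal cancer line, was profiled on 3 Human Genome U133 Plus 2.0 arrays. One array held SCD1-WT cells given the vehicle DMSO for 24 h, another held SCD1-WT cells given 100 nM of the SCD1 inhibitor T-3764518 for 24 h, and the last held SCD1-KO cells, which were given DMSO for 24 h by the study's methods although their label names neither vehicle nor time. SCD1 is the stearoyl-CoA desaturase, which makes monounsaturated fatty acids. The inhibitor and the knockout below stand for T-3764518 and for the SCD1-KO cells. The SCD1-KO cells came from clones picked after Cas9 had cut SCD with a pair of guides, how many clones entered the array is not stated in the sources at hand, and the SCD1-WT cells were not described as cloned, so cloning and loss of SCD1 cannot be told apart.

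The mevalonate pathway condenses acetyl-CoA into HMG-CoA, reduces it to mevalonate, phosphorylates and decarboxylates mevalonate to isopentenyl diphosphate, and joins these isoprene units into farnesyl diphosphate. Farnesyl diphosphate is the branch point: squalene synthase and squalene epoxidase lead from it to lanosterol and cholesterol, and other enzymes lead to prenylated proteins, dolichol and ubiquinone. Most genes of the pathway are known targets of the SREBP transcription factors, which are released from the endoplasmic reticulum when its membranes are low in sterols and which bind promoters together with the CCAAT-binding factor NF-Y and with SP1.

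The values are MAS5 signals, which are background-corrected and scaled to a common level on each array, on a linear scale in arbitrary units. The median signal of all probe sets was 68.8 for DMSO, 56.7 for the inhibitor and 62.4 for the knockout. A probe set entered a gene value where the mean of its log2 signals reached the median of that mean over all probe sets, which corresponds to 56.6, and a gene value is the median log2 ratio of the probe sets that passed. Here 16 of the 18 passed, and all 8 genes had at least 1. A gene is called higher or lower at a ratio of 2-fold, a log2 ratio of 1 or -1. With 1 array per condition no difference has a replicate check and no test was possible. The only spread at hand was that between probe sets of the same gene, whose log2 ratios with the inhibitor had an SD of 0.26 in the brightest quintile of signals and 0.58 in the dimmest (0.25 and 0.60 in the knockout). This spread does not cover differences between cultures. SCD, the targeted gene, was read by 4 probe sets. Their signals ran from 834 to 23841 with DMSO, from 6908 to 39350 with the inhibitor and from 1965 to 24119 in the knockout, and where they lie relative to the deleted part is not stated in the sources at hand, so they do not check the knockout. The study itself checked the knockout by genome sequencing and by immunoblot, on which SCD1 protein was absent. Of 6 markers of colon epithelium, KRT8, KRT18, KRT19 and VIL1 reached 56.6 on every array, and CDH17 and LGALS4 did not. VIL1 was close to that level, with highest signals of 73.9 with DMSO, 68.5 with the inhibitor and 85.8 in the knockout. Of 4 blood cell markers, 3 had a probe set. With the brightest probe set of each marker, they summed to 153 with DMSO, 155 with the inhibitor and 526 in the knockout. The last sum came mostly from LYZ. CD3E reached 56.6 on every array, at 106, 92.1 and 58.7, while PTPRC, which marks blood cells, stayed under 56.6. The 4 fibroblast markers summed to 1265, 1535 and 1233, and COL1A1 alone of them reached 56.6 on every array. ACTB, whose probe sets at both transcript ends show RNA quality, had a 3′ to 5′ quotient that was 1.30 with DMSO, 1.36 with the inhibitor and 1.54 in the knockout. For GAPDH the quotient was 0.97, 0.93 and 1.07, also highest in the knockout but lowest with the inhibitor. The part of these differences in the results was not tested. A bulk array cannot tell more mRNA per cell from more cells that carry it.

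Genes of the mevalonate pathway were higher in HCT-116 cells given the inhibitor and, for fewer of them, in the knockout. With the inhibitor, 6 of the 8 genes were at least 2-fold higher than with DMSO and none was 2-fold lower, where 2.18% of all tested genes were higher and 3.3% lower. These were ACAT2, HMGCS1, MVD, IDI1, FDPS and SQLE. In the knockout 4 were at least 2-fold higher, namely ACAT2, HMGCS1, IDI1 and FDPS, and none was 2-fold lower, against 3.12% of tested genes higher and 3.93% lower. All 4 were higher in both states, against 1.09% of tested genes, and both states are set against the same DMSO array. The median log2 ratio of the 8 genes was 1.51 with the inhibitor and 0.95 in the knockout, while the median of all tested genes was -0.087 and -0.011. The mevalonate kinase MVK and the phosphomevalonate kinase PMVK were under 2-fold in both states, and PMVK lay below its DMSO level.

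**Figure D1:**
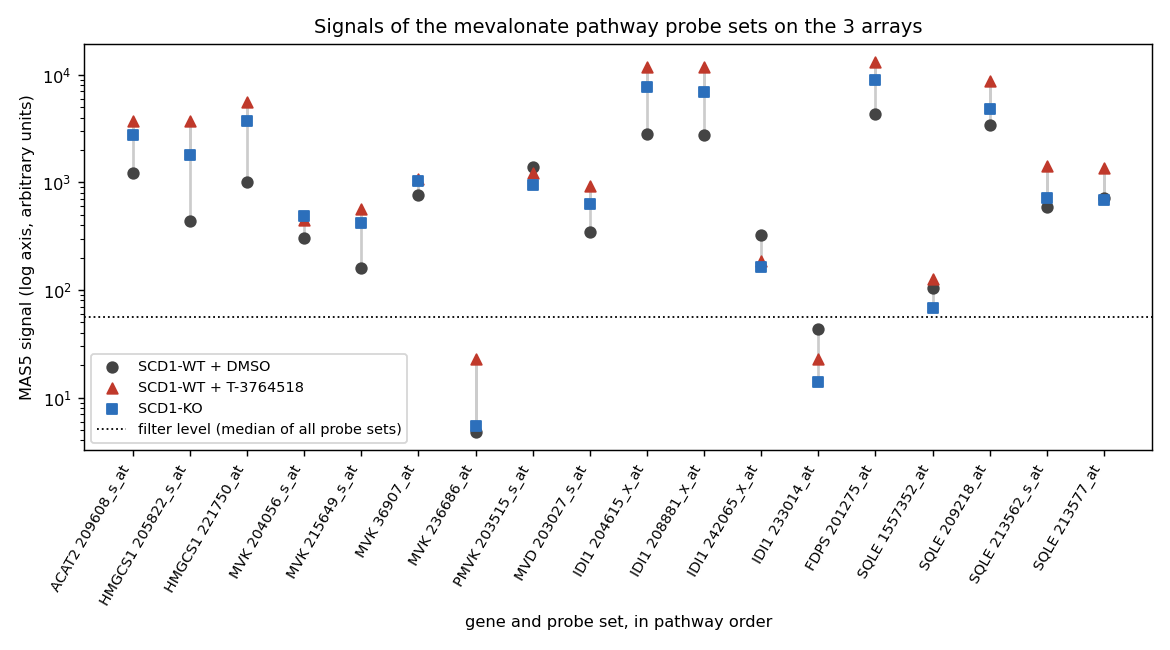
MAS5 signal on a log axis (arbitrary units) for each of the 18 probe sets of the pathway genes, in pathway order, with a circle for SCD1-WT cells with DMSO, a triangle for T-3764518 and a square for SCD1-KO cells; the dotted line is the filter level of 56.6. The triangle is highest for most probe sets, PMVK and 2 probe sets of IDI1 are highest with DMSO, and the last probe set of MVK and of IDI1 lie under the line.

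The pathway starts with ACAT2, the cytosolic thiolase that joins acetyl-CoA into acetoacetyl-CoA. Its probe set gave signals of 1219 with DMSO, 3709 with the inhibitor and 2777 in the knockout. Both perturbed arrays lay above the DMSO array, at log2 ratios of 1.61 and 1.19, and the T-3764518 array was the highest. HMGCS1, the cytosolic synthase that adds a further acetyl-CoA to give HMG-CoA, had the largest ratios of the 8 genes in both states. Probe set 205822_s_at read 436, 3726 and 1783 in SCD1-WT cells with DMSO, SCD1-WT cells with the inhibitor and SCD1-KO cells, and probe set 221750_at read 1019, 5627 and 3685. The order of the arrays was the same for both probe sets. The log2 ratios to DMSO were 3.09 and 2.47 with the inhibitor and 2.03 and 1.86 in the knockout, so the probe sets differed by more in the first than in the second. Over all tested genes HMGCS1 ranked 11 with the inhibitor and 59 in the knockout when ordered from the highest ratio.

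The kinases that follow mevalonate were under 2-fold in both states. MVK, which adds the first phosphate, was read by 3 probe sets above the filter. Probe set 204056_s_at gave signals of 303 with DMSO, 448 with the inhibitor and 492 in the knockout, 36907_at gave 771, 1082 and 1040, and 215649_s_at gave 161, 571 and 416. All 3 were lowest with DMSO, but the size differed: the log2 ratio with the inhibitor was 0.56 and 0.49 for the first pair and 1.83 for 215649_s_at, and in the knockout 0.70, 0.43 and 1.37. The gene value, the median of these, was 0.56 with the inhibitor and 0.70 in the knockout, and MVK was the only one of the 8 genes with the larger ratio in the knockout, but this order held in 4 of the 10 alternatives and not in the other 6, among them the mean of the probe sets, at 0.96 and 0.83, and the brightest probe set, at 0.49 and 0.43. The remaining probe set, 236686_at, read 4.80, 22.7 and 5.45, all under the filter level. When it was let in, the MVK value with the inhibitor became 1.20, past the 2-fold line. PMVK, which adds the next phosphate, had a single probe set, with signals of 1389 with DMSO, 1225 with the inhibitor and 955 in the knockout. The DMSO array was the highest, and the log2 ratios were -0.18 and -0.54. The first of these is within the SD of 0.29 between probe sets at that signal, and it was 0.098 after the arrays were scaled to the same median signal.

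MVD, the decarboxylase that turns mevalonate diphosphate into isopentenyl diphosphate, read 346 with DMSO, 934 with the inhibitor and 626 in the knockout on its only probe set. The arrays stood in the same order as for ACAT2 and HMGCS1. The ratio was 2.70-fold with the inhibitor and 1.81-fold in the knockout, the second under the 2-fold line under all 9 alternatives that kept the gene. With a single probe set, several of these alternatives could not change the value.

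IDI1, the isomerase that makes dimethylallyl diphosphate from isopentenyl diphosphate, gave opposite answers on different probe sets. The bright probe sets 204615_x_at and 208881_x_at agreed closely: the former read 2816 with DMSO, 11921 with the inhibitor and 7682 in the knockout, and the latter 2764, 11826 and 6961. Their log2 ratios were 2.08 and 2.10 with the inhibitor, and 1.45 and 1.33 in the knockout. Probe set 242065_x_at read 325, 186 and 163, with DMSO highest, at log2 ratios of -0.80 and -0.999. The remaining one, 233014_at, read 43.6, 22.7 and 14.0, under the filter level on every array and also highest with DMSO. The gene value of 2.08 and 1.33 is the median over the 3 probe sets that passed. It was 1.13 and 0.59 as their mean, and 0.64 and 0.17 when the dim probe set was let in, so the call for IDI1 depends on which probe sets are taken to read it. The suffix _x_at marks probe sets that can match several transcripts, and the RefSeq genes list 3 pseudogenes of IDI1.

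FDPS, the farnesyl diphosphate synthase that joins the isoprene units, read 4355 with DMSO, 13025 with the inhibitor and 8934 in the knockout on 1 probe set. The order of the arrays was again DMSO, SCD1-KO, T-3764518. The ratio was 2.99-fold with the inhibitor and 2.05-fold in the knockout, the latter close to the line at a log2 ratio of 1.04, and 10 pseudogenes of FDPS in the RefSeq genes may share its sequence. SQLE, the squalene epoxidase at the end of this stretch, differed between the states. Its brightest probe set, 209218_at, read 3428, 8751 and 4763 in the order DMSO, T-3764518, SCD1-KO, 213562_s_at read 590, 1414 and 717, 213577_at read 724, 1354 and 679, and 1557352_at read 105, 127 and 68.1. All 4 were highest with the inhibitor, while the SCD1-KO array lay above DMSO on 209218_at and 213562_s_at and below it on the others. The log2 ratios ran from 0.27 to 1.35 with the inhibitor and from -0.63 to 0.47 in the knockout, and the gene values were 1.08 and 0.094. The value with the inhibitor fell under the 2-fold line as the mean of the probe sets, at 0.95, and without the probe sets marked _s_at or _x_at, at 0.90.

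**Figure D2:**
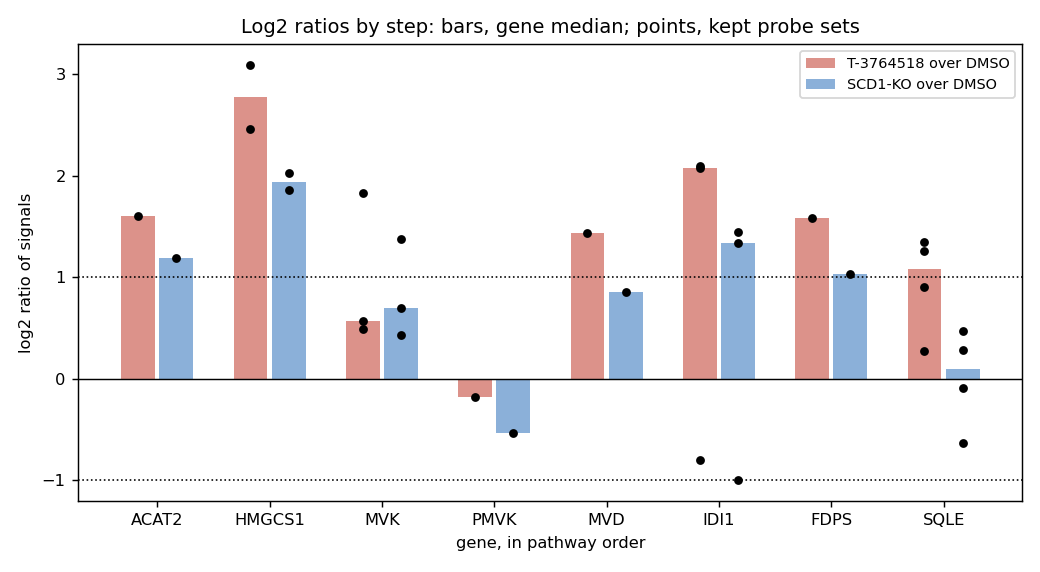
Log2 ratio of signals (vertical axis) for the 8 measured genes in pathway order (horizontal axis), with bars for the gene median over probe sets that passed the filter, red for T-3764518 over DMSO and blue for SCD1-KO over DMSO, points for single probe sets and dotted lines at 2-fold. HMGCS1 has the tallest bars at 2.78 and 1.94, PMVK lies below 0 in both, and IDI1 has 1 probe set on the other side of 0.

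Counts of single probe sets describe the same signals as the gene values, which are their medians, and so add no separate support. With the inhibitor, 10 of the 16 that passed the filter were at least 2-fold higher and none was 2-fold lower, against 2.46% of all 23192 probe sets that passed being higher. In the knockout 7 of the 16 were 2-fold higher, against 3.56% of all that passed being higher, and none was 2-fold lower. The share of all probe sets that were 2-fold lower was not taken, so the counts of lower ones stand without a background. In the ranking of all tested genes by log2 ratio with the inhibitor, HMGCS1 was followed by IDI1 at 30, ACAT2 at 84, FDPS at 86, MVD at 114, SQLE at 229, MVK at 863 and PMVK at 7342. In the knockout the order was HMGCS1 at 59, IDI1 at 186, ACAT2 at 260, FDPS at 355, MVD at 578, MVK at 909, SQLE at 4839 and PMVK at 10719, so that SQLE and MVK exchanged places. ACAT2 and FDPS, neighbours in both orders, differed in log2 ratio by less than the SD between probe sets.

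**Figure D3:**
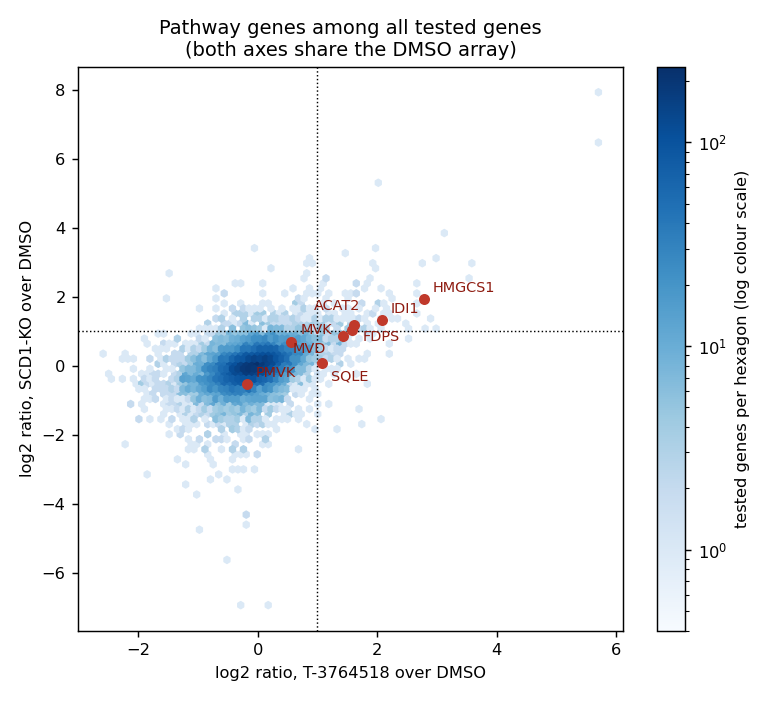
Log2 ratio with T-3764518 (horizontal axis) against log2 ratio in SCD1-KO cells (vertical axis) for all 12321 tested genes, as hexagons coloured by the number of genes on a log scale, with the 8 pathway genes as red points and dotted lines at 2-fold. HMGCS1, IDI1, ACAT2 and FDPS lie in the upper right corner, SQLE and MVD are past the line for T-3764518 only, and both axes share the DMSO array.

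Set directly against each other, without the DMSO array, the T-3764518 array was higher than the SCD1-KO array for all 8 genes, while 44.8% of all tested genes were higher. The log2 difference had a median of 0.56 over the 8 genes and -0.057 over all tested genes. The difference was taken per probe set and then as the median, so that for MVK it was positive although its median ratio to DMSO was larger in the knockout. It was smallest for MVK at 0.057, within the spread between its probe sets from -0.14 to 0.45, and largest for SQLE at 0.94, where the 4 probe sets lay between 0.88 and 1.00. HMGCS1 was next at 0.84, then IDI1 at 0.63, MVD at 0.58, FDPS at 0.54, ACAT2 at 0.42 and PMVK at 0.36. None was 2-fold higher or lower, where 3.1% of all tested genes were higher and 4.52% lower, although SQLE passed 2-fold after quantile normalization, scaling to the same median or a lowess correction. In each of those 3 scalings all 8 genes stayed above 0. The inhibitor was present for 24 h and the knockout line had been grown from clones, so the kind of perturbation and its duration cannot be told apart here. The signals of the SCD1-KO array also carry more digits, for ACAT2 2776.777 against 1219.2 with DMSO and 3708.8 with the inhibitor. Whether that array was processed differently is not stated in the sources at hand, and its part in these differences was not tested.

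Genes of the sterol steps after squalene epoxide were also among those called higher. Of 9 tested genes of the sterol steps, 5 were at least 2-fold higher with the inhibitor (LSS, the lanosterol synthase, MSMO1, the methylsterol monooxygenase, HSD17B7, a reductase of sterol ketones, SC5D, the lathosterol desaturase, and DHCR7, the reductase that makes cholesterol), and LSS and DHCR7 were also higher in the knockout. Of all tested genes, 2.18% were higher with the inhibitor and 3.12% in the knockout. The LSS probe sets ran from 0.54 to 1.88 in the knockout. None of the 9 was 2-fold lower in either, which is near the background of 3.3% and 3.93%. The median log2 ratio of the 9 was 1.10 with the inhibitor and 0.76 in the knockout. MSMO1 and SC5D, each read by 1 probe set that passed the filter, resembled SQLE. MSMO1 read 5102 with DMSO, 14159 with the inhibitor and 5869 in the knockout, and SC5D read 1730, 3960 and 1927. For both, as for SQLE, the SCD1-KO array lay near the DMSO array and the T-3764518 array well above them, at log2 ratios of 1.47 and 0.20 for MSMO1 and 1.19 and 0.16 for SC5D. DHCR7 followed the pattern of HMGCS1, at 2.10 and 1.53.

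Of the prenyl, dolichol and ubiquinone branch, 12 genes were tested, and none was called in either state. They make or attach prenyl groups, process prenylated proteins, or lead to dolichol, ubiquinone or modified tRNA. Of all tested genes, 2.18% were higher and 3.3% lower with the inhibitor, and 3.12% and 3.93% in the knockout. Against these shares, 0 of 12 is near the background. The median log2 ratio of the 12 was 0.077 with the inhibitor and -0.017 in the knockout. GGPS1, which makes geranylgeranyl diphosphate from farnesyl diphosphate, was highest with the inhibitor at 0.51, PDSS1, a subunit of the synthase of the ubiquinone side chain, was lowest at -0.78 with probe sets from -1.47 to -0.079, and FNTB, the β subunit of farnesyltransferase, was farthest from 0 in the knockout at -0.95. Of the mitochondrial paralogs and ketone body enzymes, 3 were tested and none was called, also near the background, with medians of -0.25 and 0.035. Among them ACAT1, the mitochondrial counterpart of ACAT2, read 5646 with DMSO, 4621 with the inhibitor and 7968 in the knockout, log2 ratios of -0.29 and 0.50. Of 4 genes that supply or use acetyl-CoA near the pathway, ACSS2, the cytosolic acetyl-CoA synthetase, was higher in both states at 1.98 and 1.86, and ACLY, the ATP citrate lyase, stood at 0.64 and 0.50 (list medians 0.36 and 0.41). Of 7 genes of SREBP regulation, INSIG1, an endoplasmic reticulum protein that holds SREBP back and is itself an SREBP target, was higher at 2.69 and 1.79, while the list's medians were -0.027 and 0.060. INSIG2, its paralog, read 2336, 1957 and 895, a log2 ratio of -0.26 with the inhibitor and a 2-fold call in the lower direction in the knockout at -1.38. SREBF2, which encodes the SREBP form most tied to sterol synthesis, was at 0.20 and -0.014, with probe sets from -0.49 to 0.53 with the inhibitor. SREBF1 was at 0.016 and 0.37, but its 2 probe sets disagreed. They lay at -0.65 and 0.69 with the inhibitor and at -0.25 and 0.996 in the knockout. The array reads mRNA and not the cleavage that activates SREBP.

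**Figure D4:**
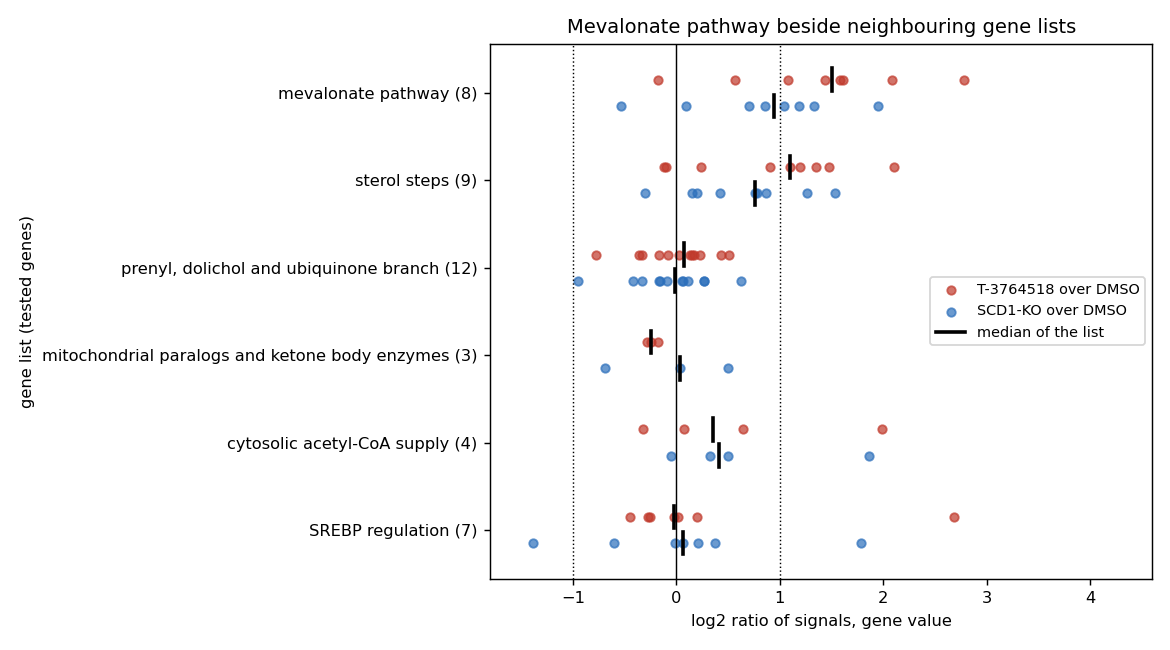
Log2 ratios of gene values (horizontal axis) for the tested genes of the mevalonate pathway and of 5 neighbouring lists (vertical axis, tested genes in brackets), red for T-3764518 over DMSO and blue for SCD1-KO over DMSO, with a black bar at each median and dotted lines at 2-fold. The medians of the pathway, 1.51 and 0.95, and of the sterol steps, 1.10 and 0.76, lie to the right of those of the other lists.

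The promoters are shown so that those of HMGCS1, MVD, IDI1 and FDPS, called higher with the inhibitor, can be read beside those of MVK and PMVK, which were not called. RefSeq windows of GRCh38.p14 were at hand for 6 of the 9 genes, HMGCS1, MVK, PMVK, MVD, IDI1 and FDPS, in 9 windows since HMGCS1 has 2 annotated starts and IDI1 has 3. The 250 bases before 1 start of each gene are printed 5′ to 3′ on the gene's strand, with capitals for the CCAAT box, the letters CCAAT or the same box read on the other strand, ATTGG.
HMGCS1, chr5:43313413-43313662, - strand: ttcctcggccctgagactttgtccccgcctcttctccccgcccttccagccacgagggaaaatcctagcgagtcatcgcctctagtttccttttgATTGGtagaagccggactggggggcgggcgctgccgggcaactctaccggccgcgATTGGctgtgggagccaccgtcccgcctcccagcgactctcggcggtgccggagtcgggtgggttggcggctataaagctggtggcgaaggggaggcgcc
MVK, chr12:109573544-109573793, + strand: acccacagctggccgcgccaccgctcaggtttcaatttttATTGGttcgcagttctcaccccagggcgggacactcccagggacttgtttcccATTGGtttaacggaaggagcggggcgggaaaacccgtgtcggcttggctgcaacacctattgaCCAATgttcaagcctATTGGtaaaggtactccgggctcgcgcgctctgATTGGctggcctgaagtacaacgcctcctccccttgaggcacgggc
MVD, chr16:88663092-88663341, - strand: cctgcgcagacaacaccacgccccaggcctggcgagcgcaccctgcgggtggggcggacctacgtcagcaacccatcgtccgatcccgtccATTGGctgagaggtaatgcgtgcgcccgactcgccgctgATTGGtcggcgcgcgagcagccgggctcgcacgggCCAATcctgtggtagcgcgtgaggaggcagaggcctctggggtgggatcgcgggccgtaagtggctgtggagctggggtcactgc
IDI1, chr10:1048887-1049136, - strand: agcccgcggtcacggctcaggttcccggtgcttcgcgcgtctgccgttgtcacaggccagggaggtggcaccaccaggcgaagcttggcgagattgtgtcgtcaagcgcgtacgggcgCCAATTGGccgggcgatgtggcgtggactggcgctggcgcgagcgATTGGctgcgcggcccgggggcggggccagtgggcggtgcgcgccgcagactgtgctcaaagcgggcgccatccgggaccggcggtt
FDPS, chr1:155308616-155308865, + strand: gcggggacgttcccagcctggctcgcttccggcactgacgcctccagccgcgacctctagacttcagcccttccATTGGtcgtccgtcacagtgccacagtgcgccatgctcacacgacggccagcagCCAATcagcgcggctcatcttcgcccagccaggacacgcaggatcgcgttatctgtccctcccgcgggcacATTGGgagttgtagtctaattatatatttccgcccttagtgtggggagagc
PMVK, chr1:154936720-154936969, - strand: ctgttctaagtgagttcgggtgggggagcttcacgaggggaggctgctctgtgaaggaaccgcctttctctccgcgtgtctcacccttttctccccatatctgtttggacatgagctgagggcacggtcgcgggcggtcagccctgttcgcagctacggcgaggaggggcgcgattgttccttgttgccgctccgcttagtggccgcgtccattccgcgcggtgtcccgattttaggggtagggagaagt
HMGCS1 held 2 boxes, at 155 and 100 bases before the start, counted from the first base of the box. MVK held 5, MVD held 3 and FDPS held 3. The IDI1 window printed held 3, of which a pair overlaps as CCAATTGG, another IDI1 window held 2, and the window of its outermost start held none, as did the second window of HMGCS1. PMVK held none. Of all 35116 windows, 32.0% held at least 1 box in these 250 bases and 9.53% at least 2. Counted by gene, 5 of the 6 pathway genes had a window with at least 2, against 11.5% of 27305 genes, 4 of 10 genes of the sterol steps, 2 of 4 of cytosolic acetyl-CoA supply, 1 of 3 of the mitochondrial and ketone body list, 1 of 10 of the prenyl, dolichol and ubiquinone branch and 0 of 7 of SREBP regulation, INSIG1 among these last. With the inhibitor, the log2 ratio was 0.56 for MVK with 5 boxes and 2.78 for HMGCS1 with 2. It was 1.43 for MVD, 2.08 for IDI1 and 1.58 for FDPS, with 3 each in the windows printed. PMVK, with none, was at -0.18. A link between boxes and ratios was not tested. The core TCACNCCAC of an SREBP site and the E-box CACGTG, searched on both strands over the full 300-base windows, were in none of the 9 and in 1.13% and 7.26% of all windows, which says only that these letters are not in these windows. The motifs were chosen after the ratios had been seen, and a match is a run of letters and not a measured binding site.

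Across 10 ways of processing the signals, the sign and size of most gene values held. HMGCS1 ran from 2.47 to 3.06 with the inhibitor and from 1.86 to 2.08 in the knockout, and ACAT2, HMGCS1, PMVK, MVD and FDPS stayed on the same side of the 2-fold line in both states wherever they could be computed. MVK, IDI1 and SQLE crossed it in at least 1 alternative with the inhibitor, and IDI1 also in the knockout.

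**Figure D5:**
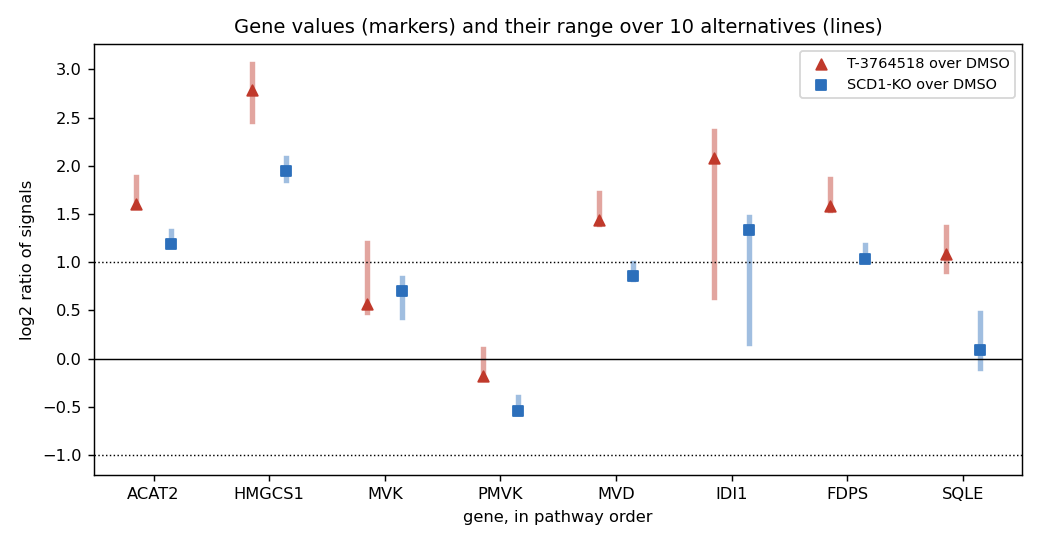
Gene value as log2 ratio of signals (vertical axis) for the 8 genes in pathway order, with a triangle for T-3764518 over DMSO, a square for SCD1-KO over DMSO, a line for the range over the 10 alternatives for gene values, and dotted lines at 2-fold. The lines are long for IDI1, down to 0.64 and 0.17, and for MVK with T-3764518, up to 1.20, and short for ACAT2, MVD and FDPS. These last have a single probe set each, so several alternatives could not change them.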

How the data were processed

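Total RNA of 3 HCT-116 cultures was labelled and hybridised to U133 Plus 2.0 arrays. The authors deposited a MAS5 signal intensity per probe set on a linear scale; the submitters' processing notes name MAS5 without a version. The deposited signals ran from 0.100 to 55606, and those of the SCD1-KO array carry more digits than those of the other arrays. Of 54675 probe sets, 41097 carried 1 gene symbol in the platform annotation, 1801 carried several and 11777 none, and 62 controls entered no gene value. The later steps used Python 3.11.15 with pandas 2.3.3, numpy 2.4.6 and statsmodels 0.14.6: log2 ratios per probe set, a filter at percentile 50 of the mean log2 signal, the median per gene, and a call at 2-fold. The code for ratios and calls was checked on simulated signals with known folds, which says nothing about single calls here. With 1 array per condition no test was run, and the number of arrays limits the precision.

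The genes of the pathway, the neighbouring lists and the rule for named genes were chosen with earlier results of these data known. Named were the members, SCD, the called genes of the lists and the 5 genes nearest to the members' pair of median ratios; genes named beside them were picked after their values were seen. Alternatives were quantile normalization, scaling to the same median signal, a lowess correction of ratios on mean signal, a filter at percentile 75 or none, 16.5 (percentile 25 of the signals) added before the log, a floor at 56.6, the brightest probe set, the mean of probe sets, no probe sets marked _s_at or _x_at, thresholds of 1.5-fold and 3-fold, and a call by every probe set. Promoters were RefSeq windows of GRCh38.p14.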

Additional observations from a re-analysis of the deposited data

How the results depend on the processing

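Counts are of the 8 genes unless stated. Without probe sets marked _s_at or _x_at only HMGCS1, MVK, FDPS and SQLE were left, and 2 were higher with the inhibitor, 2 in the knockout and 2 in both. Of all genes tested that way, 2.39% were higher with the inhibitor and 3.44% in the knockout. At 3-fold the counts were 3, 1 and 1, where 0.68% of all tested genes were higher with the inhibitor and 0.86% in the knockout. The shares for both states together were not taken. None was 2-fold higher with the inhibitor than in the knockout, but 1 was after quantile normalization, 1 after scaling to the same median and 1 after the lowess correction, each time SQLE, and 3 were at 1.5-fold. For these alternatives the share of all genes higher with the inhibitor than in the knockout was not taken. In the other alternatives the counts of higher genes lay within 1.5 times the main ones, and no gene was 2-fold lower in any. The genes behind a count could differ: without the filter, the 6 higher with the inhibitor held MVK in place of IDI1. Of all 19775 genes tested without the filter, 8.50% were higher with the inhibitor and 9.02% in the knockout, and 2870 were lower with the inhibitor. At 1.5-fold the shares higher were 6.62% and 9.95%. Of 152 gene values under the alternatives, 141 moved by less than the SD between probe sets at that signal and none of the called values changed sign. The 141 include values of genes with a single probe set that several alternatives could not change. Scaling to the same median raised the median of all genes by 0.28 with the inhibitor and by 0.14 in the knockout. It turned the calls with the inhibitor over all genes from 269 higher and 407 lower to 551 and 163 (571 and 365 in the knockout, from 385 and 484), and the share called higher to 4.47% and 4.63%; quantile normalization gave 356 and 265, and the lowess correction 365 and 244. No paired analysis was possible because each condition had 1 array. Dim signals limit 236686_at of MVK and 233014_at of IDI1, which lay under the filter level on every array.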

Other observations

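Some genes overlap the pathway genes in the RefSeq annotation, and their values were taken after those of the pathway had been seen. MMAB, which encodes an enzyme of cobalamin metabolism and overlaps MVK, was 2.04-fold higher with the inhibitor and 1.75-fold in the knockout, on 1 probe set. The gene value of MVK was 1.48-fold and 1.62-fold. Its probe sets that passed ran from 1.40-fold to 3.55-fold and from 1.35-fold to 2.59-fold, so the order of MMAB and MVK is not settled. RUSC1-AS1, a non-coding RNA that overlaps FDPS, was 2.25-fold and 3.11-fold higher, so it was higher in the knockout than with the inhibitor where FDPS was the reverse. IDI2-AS1, which overlaps IDI1, was 1.79-fold and 0.915-fold its DMSO level, and SOD2, the mitochondrial superoxide dismutase, which overlaps ACAT2 in the annotation, was 0.763-fold and 1.03-fold.

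Outside the pathway, the genes with the most similar pair of log2 ratios to the members' medians were SLFN5, JUN, GFPT1, MAFF and SKIL, at distances from 0.036 to 0.15 on the log2 scale over 3 arrays. They were chosen among 2268 genes with at least 2 probe sets on the same side of 0. JUN, a subunit of AP-1, was 2.77-fold higher with the inhibitor and 1.92-fold in the knockout. With 2 ratios that share the DMSO array, such closeness is a description only.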
